A study of Mus musculus with 12 samples.

Results

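The period from embryonic stage E13.5 (days after mating) to E17.5 in male gonads of the chromosome substitution strain 129.MOLF-Chr 19, called M19, is described here from 4 of 12 arrays: the 2 arrays titled as E17.5 testis of M19 against the 2 titled as E13.5 testis of M19. M19 has the 129 background with its chromosome 19 taken from the MOLF strain. All 45037 probe sets that are not array controls were compared, of 45101 on the array, and they gave 18032 genes with 1 representative probe set each. The other groups were male gonads of M19 at E15.5 and of 129/Sv, called 129, at E13.5, E15.5 and E17.5, with 2 arrays each and no treatment in any group. The stages E13.5 and E15.5, and E15.5 and E17.5, are compared in the series design, whose title names genes of transformed germ cells in testicular germ cell tumours (TGCT) as the subject. The span as a whole is set here beside its earlier step, from E13.5 to E15.5, and its later step, from E15.5 to E17.5, which share its arrays. The labels give male genital ridges as the source and testis as the tissue, and say that 40 pairs of testes went into one pool for 2 arrays. If the pair of arrays in a group was made from a single pool, the p-values measure technical spread between arrays and not the spread between embryos.

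In the mouse fetal testis, germ cells stop dividing in these days, switch off the genes of pluripotent cells and begin to set DNA methylation and to silence transposons as prospermatogonia. Sertoli cells form the testis cords around them, peritubular smooth muscle cells wrap the cords, and fetal Leydig cells between the cords make androgens from cholesterol. M19 males are known for a high rate of testicular tumours that arise from fetal germ cells.

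The values are taken as log2 signal, so that a difference of 1 is a doubling, and a larger value is a brighter probe set. Array medians ran from 8.10 to 8.27, and each array listed between 8 and 18 probe sets at 0. The 2 M19 arrays of a stage correlated over all probe sets at 0.996 for E13.5, 0.994 for E15.5 and 0.99 for E17.5. The signal of the 18S ribosomal RNA controls was 7.47 to 7.96 on the M19 arrays, and 9.69 on replicate 1 of 129 at E13.5, which stood apart from the rest. That array enters the M19 comparison only through the estimate of the spread, which the 12 arrays share. Markers of the labelled tissue read as follows on the M19 arrays of E13.5 and E17.5, though signal over background could not be judged. Sox9, the transcription factor that starts Sertoli cell development, read 10.47 and 10.36 at E13.5 and 10.61 and 9.97 at E17.5. Ddx4, an RNA helicase of germ cells, read 10.59 and 10.66, then 11.50 and 11.94, and Star, which carries cholesterol into mitochondria, read 9.87 and 9.95, then 12.44 and 12.69. The ovary's factor Foxl2 read 9.20 and 9.16, then 9.31 and 9.54, and did not pass the test (difference 0.24 ± 0.19, limma adjusted p = 0.42).

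Over the span, 3152 probe sets (7.00% of those tested) were higher at E17.5 and 2404 (5.34%) were lower, at a Benjamini-Hochberg adjusted p under 0.05 in limma, which is what called means below. Counted by genes, 1843 (10.2%) were higher and 954 (5.29%) were lower. Each count of list members below is to be read beside these shares. Among the higher genes the median difference was 0.69, 405 rose by at least 1, 96 by at least 2 and 22 by at least 3. Among the lower genes the median size was 0.68, 181 fell by at least 1, 38 by at least 2 and 10 by at least 3. The median over all genes was 0.10. Of the called probe sets 56.7% were higher, against 48% after quantile normalization (3080 higher, 3338 lower) and 43.7% after median centring (2538 higher, 3264 lower), so which direction had more called probe sets depends on the scaling. Of the called genes 65.9% were higher, against 58.9% after quantile normalization (1862 higher, 1300 lower) and 53.7% after median centring (1503 higher, 1295 lower), so by genes the higher calls were more under each of these scalings. The counts also depend on single arrays, given here as probe sets. Without replicate 1 or 2 of M19 at E13.5, 1316 or 1132 were higher and 693 or 564 lower, and without replicate 1 or 2 of M19 at E17.5, 1740 or 1611 were higher and 718 or 1792 lower. Without either 129 array of E13.5, 4889 were higher and 3424 lower.

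**Figure D1:**
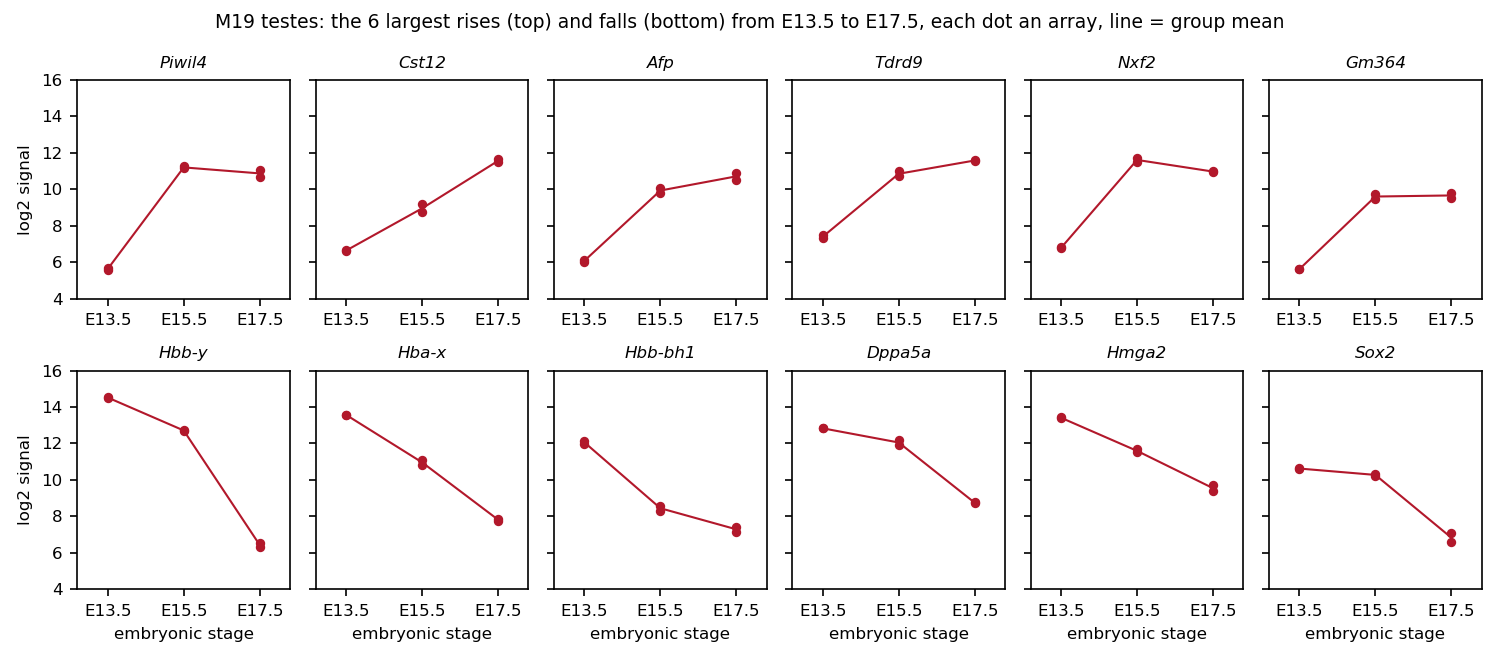
Log2 signal (vertical axis) of the 6 genes with the largest rise (top) and the 6 with the largest fall (bottom) on the 6 M19 arrays at E13.5, E15.5 and E17.5 (horizontal axis), each dot an array and the line joining group means. Piwil4 reached its E17.5 level by E15.5, Cst12 climbed at both steps, and Sox2 and Dppa5a fell mainly after E15.5.

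The largest fall of any gene was in an embryonic globin. Hbb-y, the beta-like globin of the first red blood cells, lies on chromosome 7 at 103851754 to 103853207 (RefSeq, build GRCm38.p6, as are all positions here). It read 14.54 and 14.51 at E13.5, 12.74 and 12.67 at E15.5 and 6.30 and 6.55 at E17.5. The stages do not overlap, and the fall by 8.10 ± 0.13 (SE, 2 arrays per stage; limma adjusted p = 1.1e-10) amounts to 274-fold. Most of it, 6.28, came at the later step. Hba-x, the embryonic alpha-like globin, fell by 5.76 ± 0.12, from 13.56 and 13.58 to 7.86 and 7.75, and Hbb-bh1, another embryonic beta-like globin, fell by 4.78 ± 0.17, from 11.99 and 12.12 to 7.43 and 7.12. Hbb-bh1 fell by 3.62 at the earlier step and fell by 1.16 at the later step. The 2 further probe sets of Hbb-y and the 2 of Hbb-bh1 were also called lower. Whether probe sets of these related globins bind each other's transcripts was not tested.

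The other genes of red blood cells did not all follow the embryonic globins. Of the 17 list members measured, 4 were called lower, the embryonic globins and Slc4a1, the anion exchanger of the red cell membrane (fall by 0.82 ± 0.18). Another 3 were called higher, namely Alas2, the first enzyme of red cell haem synthesis (1.71 ± 0.12, from 9.38 and 9.30 to 11.00 and 11.10), Slc25a37, the mitochondrial iron carrier (0.72 ± 0.13), and the carbonic anhydrase Car1 (0.65 ± 0.16), with 1 higher without either M19 array of E13.5. The probe set of the adult alpha globin Hba-a1 read 7.22 and 7.16 at E13.5 and 7.48 and 7.25 at E17.5 and was not called. Of the 22 list members 17 were measured, and probe sets that the annotation gives to several genes represent no gene here. Adult globin transcripts read by such probe sets would be missing from these values. The summed linear signal of the 17 measured members fell from between 44537 and 44574 on the E13.5 arrays to between 7005 and 7489 on the E17.5 arrays. No measured member stood at 0. In such whole-organ RNA, fewer cells of a type and less RNA per cell cannot be told apart, which holds for every group of genes below.

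Genes of pluripotent cells were the next group among the deep falls. Dppa5a, an RNA-binding protein of pluripotent and early germ cells (chromosome 9, 78367052 to 78368199), read 12.82 and 12.83 at E13.5, 12.17 and 11.93 at E15.5 and 8.78 and 8.71 at E17.5. Sox2, a transcription factor that maintains pluripotency (chromosome 3, 34649995 to 34652461), read 10.61 and 10.64, then 10.34 and 10.19, then 6.56 and 7.07. Dppa3, also called Stella, which protects methylation marks in the early embryo, read 12.27 and 12.34, then 12.35 and 12.19, then 8.77 and 8.91. In Sox2 and Dppa3 the E13.5 and E15.5 arrays lie close together, while in Dppa5a the E15.5 arrays lie lower. In each of these genes both E17.5 arrays lie far below. Over the span Dppa5a fell by 4.08 ± 0.11, Sox2 fell by 3.81 ± 0.22 and Dppa3 fell by 3.46 ± 0.12 (limma adjusted p = 9.1e-09, 1.6e-06 and 4.6e-08). At the earlier step the differences were -0.77, -0.36 and -0.04, and of these only that of Dppa5a was called.

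Of the 22 pluripotency genes measured, 10 fell (45.5%, against 5.29% of all genes) and 2 rose (9.09%, against 10.2%) over the span. Their median was -0.48 against 0.10 for all genes. The time of the fall differed among them. L1td1, an RNA-binding protein of stem cells derived from a transposon, fell at the earlier step, from 10.25 and 10.32 to 6.97 and 6.91, and read 7.48 and 7.47 at E17.5. Nanog, a core pluripotency transcription factor, fell by 0.93 at the earlier step, which was called, and differed by -0.95 at the later step, which was not (limma adjusted p = 0.058). Over the span it fell by 1.87 ± 0.23. Pou5f1, which encodes OCT4, read 10.57 and 10.64, then 11.42 and 11.38, then 9.75 and 9.67. It was highest at E15.5, and its difference over the span was a fall by 0.90 ± 0.16 between a called rise of 0.79 and a called fall by 1.69. Zfp42, known as Rex1, fell by 2.38 ± 0.18 and Tcl1, a co-activator of the kinase Akt, by 1.42 ± 0.14. The smallest called fall was in the nuclear receptor Esrrb (0.59 ± 0.17, limma adjusted p = 0.046), which missed the threshold in 8 of 12 fits with 1 array omitted. The members that rose were Dppa4, a chromatin protein (0.83 ± 0.11), and Klf4, a reprogramming factor (0.94 ± 0.23), with 1 higher without any M19 array of E13.5 or E17.5.

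The largest rise over the span was in Piwil4, the Piwi protein that carries piRNAs into the nucleus of prospermatogonia and directs DNA methylation to transposons. It lies on chromosome 9 at 14701776 to 14740672 and read 5.57 and 5.66 at E13.5, 11.25 and 11.14 at E15.5 and 10.69 and 11.05 at E17.5. Both later stages lie far above E13.5 and the E17.5 arrays lie below both E15.5 arrays, at a difference of -0.33 that was not called. The rise over the span was 5.25 ± 0.28 (limma adjusted p = 8.9e-07), or 38.1-fold, and its other probe set rose by 3.22. Tdrd9, a helicase that acts with Piwil4, read 7.31 and 7.46, then 10.99 and 10.71, then 11.55 and 11.61, and rose by 4.19 ± 0.12. Nxf2, a nuclear export factor of male germ cells on the X chromosome (134944526 to 134964754), read 6.75 and 6.82, then 11.74 and 11.49, then 10.95 and 10.99, and also rose by 4.19 ± 0.12. Tdrd9 was highest at E17.5, and Nxf2 at E15.5.

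Other genes of transposon silencing followed one of these courses. Morc1, an ATPase that represses transposons, read 6.75 and 6.80, then 11.60 and 11.52, then 10.26 and 10.49, a rise of 3.60 ± 0.16 with a called fall by 1.18 at the later step. Mael, known as Maelstrom and needed for piRNA production, read 9.46 and 9.45, then 12.83 and 12.80, then 12.73 and 12.87, and hardly differed between the later stages (-0.02). Dnmt3l, the cofactor that recruits DNA methyltransferases in male germ cells, read 7.54 and 7.55, then 10.38 and 10.25, then 10.75 and 10.75, a rise of 3.21 ± 0.12. Piwil2, which encodes the Piwi protein MILI, rose by 2.76 ± 0.15.

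In all, 18 of the 22 measured genes of the piRNA and transposon list were higher at E17.5 and 0 lower, against 10.2% and 5.29% of all genes, with a median of 1.02. At the earlier step 21 of the 22 were called higher (5.78% of all genes), with a median of 1.82. At the later step 1 was called higher and 8 lower (1.45% and 1.80% of all genes), with a median of -0.33. Among the members that fell again, the mitochondrial piRNA factor Asz1 dropped by 1.55 and the tudor protein Tdrd5 dropped by 1.40. Their rises over the span were small, 0.63 ± 0.17 and 0.55 ± 0.14, and missed the threshold in 7 and 4 of the 12 leave-one-out fits, which each omit an array. At an unadjusted p under 0.05 limma had 1 member lower over the span, and after quantile normalization or median centring 1 member was called lower.

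The sequence upstream of these genes was searched for 8 short motifs. The promoters of Tdrd9, Nxf2, Mael and Sohlh1, a transcription factor of spermatogonia that rose by 2.96 ± 0.11, are printed because they hold the E-box CACGTG, which factors such as MYC, MAX and USF are known to bind. Each is the 250 bases before the first listed start, from RefSeq, build GRCm38.p6, written in the direction of the gene, with the motif in capitals.
Tdrd9, chr12:111971309-111971558, plus strand: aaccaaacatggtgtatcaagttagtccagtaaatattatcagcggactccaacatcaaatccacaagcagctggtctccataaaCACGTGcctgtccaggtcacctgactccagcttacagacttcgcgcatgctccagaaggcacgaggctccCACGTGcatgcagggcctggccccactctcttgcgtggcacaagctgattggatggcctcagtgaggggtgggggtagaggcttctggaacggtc
Nxf2, chrX:134964755-134965004, minus strand: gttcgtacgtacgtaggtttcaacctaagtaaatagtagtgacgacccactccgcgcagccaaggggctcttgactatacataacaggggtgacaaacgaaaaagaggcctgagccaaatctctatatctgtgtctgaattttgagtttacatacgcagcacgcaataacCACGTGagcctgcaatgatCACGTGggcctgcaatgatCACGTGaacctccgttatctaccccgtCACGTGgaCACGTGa
Mael, chr1:166238745-166238994, minus strand: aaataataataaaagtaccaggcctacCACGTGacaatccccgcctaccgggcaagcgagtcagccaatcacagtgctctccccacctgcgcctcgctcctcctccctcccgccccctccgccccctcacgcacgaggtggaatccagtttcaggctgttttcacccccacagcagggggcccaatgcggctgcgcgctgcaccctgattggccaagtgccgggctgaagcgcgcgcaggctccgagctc
Sohlh1, chr2:25847249-25847498, minus strand: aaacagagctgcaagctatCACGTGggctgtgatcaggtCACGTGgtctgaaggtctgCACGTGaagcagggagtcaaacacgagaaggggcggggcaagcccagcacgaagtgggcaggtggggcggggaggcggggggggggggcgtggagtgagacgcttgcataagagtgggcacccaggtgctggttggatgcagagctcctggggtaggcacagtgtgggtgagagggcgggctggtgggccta

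The letters CACGTG, the same on both strands, occur 2 times in the stretch of Tdrd9, 5 times in that of Nxf2, once in that of Mael and 3 times in that of Sohlh1. The last match in the Nxf2 stretch ends 2 bases before the start, and the last in the Tdrd9 stretch ends 90 bases before it. In the piRNA and transposon list 7 of the 19 genes with a promoter in the table hold it (36.8%), namely Piwil1, Mov10l1, Tdrd1, Tdrd9, Mael, Ddx4 and Nxf2. In the meiosis list 5 of 23 do (21.7%), namely Sycp3, Sycp1, Hormad1, Tex12 and Stag3. Over all 14368 genes with a promoter the share was 7.57%, among genes called higher 9.68% and among genes called lower 9.92%. Piwil4, with the largest rise, has no match in its stretch. A match is a description of the letters and no evidence of binding.

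Germ cells of the testis do not enter meiosis before birth, yet several genes of meiosis were higher at E17.5. Of the 27 measured, 13 were higher, 2 lower and 12 not called, with a median of 0.47, and 16 were called higher at the earlier step and 7 lower at the later step. Tex15, a germ cell protein of transposon silencing and of meiotic repair, read 8.80 and 8.83, then 12.10 and 12.04, then 11.89 and 12.08, a rise of 3.17 ± 0.15. Tex12, of the central element of the synaptonemal complex, rose by 2.41 ± 0.18. Sycp3, of the axial element, read 8.45 and 8.71, then 11.25 and 11.11, then 9.56 and 9.87, and Sycp1, of the transverse filaments, read 7.14 and 7.21, then 9.35 and 9.22, then 7.88 and 7.92. Both stood highest at E15.5 and kept a smaller rise at E17.5, of 1.13 ± 0.21 and 0.72 ± 0.11. Stra8, the gatekeeper of meiotic entry, read 7.79 and 7.68 at E13.5 and 7.98 and 8.15 at E17.5 and was not called (0.33 ± 0.17, limma adjusted p = 0.21). The members that fell were Mei4, of double strand break formation (2.39 ± 0.44), and Tex11, an X-linked crossover protein (0.59 ± 0.14). Without replicate 2 of M19 at E13.5 or replicate 1 of M19 at E17.5 0 members were called lower, and without replicate 1 of M19 at E13.5 1 was.

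Further germ cell regulators moved in both directions. Of the 18 spermatogonial factors measured, 4 were called higher and 2 lower (22.2% and 11.1%, against 10.2% and 5.29% of all genes). Sohlh1 read 6.76 and 6.69, then 9.88 and 9.74, then 9.72 and 9.65, while its partner Sohlh2 read 9.98 and 9.95, then 8.54 and 8.47, then 7.89 and 7.98. The pair thus went opposite ways, by 2.96 ± 0.11 and -2.03 ± 0.13. Egr4, an early growth response factor of male germ cells, rose by 2.16 ± 0.18 with its peak at E15.5, and Uchl1, a deubiquitinase that marks spermatogonia, rose by 1.65 ± 0.17. Etv5, a target of GDNF signalling, fell by 1.32 ± 0.15. Without either 129 array of E13.5, 4 members of this list were called lower.

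Among the 14 genes of germ cell identity and RNA binding, 4 were higher and 3 lower, with 2 higher without replicate 1 of M19 at E13.5 and 5 lower without either 129 array of E13.5. Ddx4 rose by 1.09 ± 0.20 and Mael by 3.35 ± 0.15, while Dazl, a translation regulator of germ cells, fell by 0.56 ± 0.14, from 12.28 and 12.30 to 11.57 and 11.90. Cpeb1, which controls polyadenylation of stored messages, fell by 1.50 ± 0.17 and Prdm1, the repressor that specifies germ cells, by 0.99 ± 0.16. Of the 9 genes of DNA methylation and its removal, 1 was called higher and 1 lower by representative probe set. Each is 11.1% of the list, against 10.2% higher and 5.29% lower of all genes. The called members were Dnmt3l on the higher side and Tet1, an enzyme that oxidises methylcytosine, on the lower side (1.47 ± 0.27). Without replicate 2 of M19 at E13.5 or replicate 1 of M19 at E17.5 0 were lower, and without either 129 array of E13.5 2 were higher. Dnmt3a, the methyltransferase that works with Dnmt3l, read 11.67 and 11.77 at E13.5 and 11.49 and 11.83 at E17.5 (-0.06 ± 0.16). Its 4 other probe sets differed by 0.10 to 0.59, and 2 of them were called higher. The 3 other probe sets of Tet1 differed by -1.79 to 0.06, and 1 of them was called lower. The methyltransferase gene Dnmt1 was not called (-0.22 ± 0.11), but its 2 other probe sets were called lower (-0.46 and -0.35).

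Nodal and Activin signals keep pluripotency genes active in several cell types, and several of their genes were lower at E17.5 while the subunits of activins and inhibins were higher. The ligand Nodal fell by 0.85 ± 0.13, from 8.37 and 8.25 to 7.60 and 7.32, its inhibitors Lefty1 and Lefty2 by 0.62 ± 0.12 and 1.20 ± 0.23, the receptor Acvr2a by 0.96 ± 0.22 and the signal carrier Smad3 by 0.54 ± 0.12. The co-receptor Tdgf1, known as Cripto, read 8.55 and 8.46, then 6.01 and 5.89, then 7.66 and 8.10. It fell by 2.56 at the earlier step and rose by 1.93 at the later step, and its span difference was not called. The subunits Inhba, Inhbb and Inha of activins and inhibins rose by 1.94 ± 0.12, 1.02 ± 0.16 and 2.53 ± 0.12. Of the 16 measured, 4 were higher and 5 lower, but 2 were lower without replicate 1 or 2 of M19 at E13.5 or without replicate 1 of M19 at E17.5.

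Sertoli cell genes were mostly higher at E17.5. Cst12, a cystatin of the testis and epididymis (chromosome 2, 148789365 to 148793432), read 6.60 and 6.66 at E13.5, 9.17 and 8.74 at E15.5 and 11.64 and 11.48 at E17.5. Serpina5, a serine protease inhibitor of the male tract, read 6.28 and 6.18, then 8.05 and 7.94, then 10.10 and 10.23. Both climbed at each step with no overlap between stages, by 2.32 and 2.61 for Cst12 and by 1.77 and 2.17 for Serpina5. The rises over the span were 4.93 ± 0.16 and 3.93 ± 0.12 (limma adjusted p = 1.9e-08 and 9.7e-09). Amh, the hormone that removes the Müllerian ducts, read 9.89 and 10.52, then 11.30 and 11.85, then 12.62 and 12.18, a rise of 2.19 ± 0.39 with a wide spread within each stage.

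Of the 29 Sertoli cell genes measured, 16 were higher and 3 lower, with a median of 0.62. Tesc, a calcium-binding protein, rose by 1.50 ± 0.12, the secreted chaperone Clu by 1.43 ± 0.11, the prostaglandin synthase Ptgds by 1.14 ± 0.12 and the receptor for follicle-stimulating hormone Fshr by 1.10 ± 0.16. The transcription factors Nr5a1, Gata4 and Sox8 rose by 0.97 ± 0.11, 0.71 ± 0.11 and 1.04 ± 0.20. The other probe set of Nr5a1 differed by 0.31 and was not called. Sox9 (-0.13 ± 0.21) and the cord signal Dhh (0.27 ± 0.13) were not called. The members that fell were Fgf9, the tight junction protein Cldn11 (1.27 ± 0.14) and the transcription factor Wt1 (0.65 ± 0.11). Fgf9, an early male-determining growth factor, fell by 1.95 ± 0.15, from 9.46 and 9.41 to 7.33 and 7.64. Its other probe set differed by -0.40 and was not called.

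Of the 16 fetal Leydig cell genes measured, 11 were higher and 0 lower, with a median of 1.34. Star, given above, rose by 2.66 ± 0.15, with 12.15 and 12.03 at E15.5. Cyp11a1, which cuts the side chain of cholesterol (chromosome 9, 57998024 to 58027031), read 10.46 and 10.68, then 12.82 and 12.79, then 13.28 and 13.22, a rise of 2.69 ± 0.14. Cyp17a1, the enzyme that leads to androgens, read 11.60 and 11.56, then 13.44 and 13.46, then 13.89 and 13.98, a rise of 2.35 ± 0.11. In these genes most of the rise had come by E15.5, and the E17.5 arrays lay above the E15.5 arrays without overlap. The high density lipoprotein receptor Scarb1 rose by 2.06 ± 0.11, Hsd3b1 by 1.78 ± 0.11, the electron carrier Fdx1 by 1.39 ± 0.11 and Hsd17b3, which makes testosterone, by 1.15 ± 0.14. Of the list, 10 were called higher at the earlier step and 3 at the later step. At an unadjusted p under 0.05 limma also had 11 higher and 0 lower over the span.

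The enzymes that make cholesterol rose with them, by smaller amounts. Of the 19 genes measured 18 were higher and 0 lower over the span, with a median of 0.92. At the earlier step 12 were called and at the later step 0, where limma called 587 genes (3.26%) in all and had 4 of the list higher and 0 lower at an unadjusted p under 0.05. Over the span, that rule in limma had 19 higher and 0 lower. Tm7sf2, a sterol reductase, read 8.41 and 8.55, then 10.35 and 9.99, then 10.50 and 10.20, a rise of 1.87 ± 0.15. Dhcr7, the last enzyme of the pathway, read 10.42 and 10.48, then 11.84 and 11.92, then 12.19 and 12.02, a rise of 1.65 ± 0.11. The transcription factor Srebf2, which controls the pathway, rose by 1.26 ± 0.22, and the first enzyme Hmgcs1 by 0.98 ± 0.11. The member not called was the mevalonate kinase Mvk, at 0.42 ± 0.17 (limma adjusted p = 0.12).

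The CCAAT box, which the factor NF-Y is known to bind, stands in the 250 bases before the first start of 15 of 16 cholesterol genes with a promoter in the table (93.8%). It was searched on both strands, as CCAAT or as ATTGG, and the share over all promoters was 35.7%. It was 34.7% among genes called higher and 37.9% among genes called lower, and 22 of 33 replication and mitosis genes held it (66.7%). The stretches of Tm7sf2 and of Idi1, the isomerase of the pathway, which rose by 1.00 ± 0.13, are printed from the same source with the match in capitals, to show its place near the start.
Tm7sf2, chr19:6067851-6068100, minus strand: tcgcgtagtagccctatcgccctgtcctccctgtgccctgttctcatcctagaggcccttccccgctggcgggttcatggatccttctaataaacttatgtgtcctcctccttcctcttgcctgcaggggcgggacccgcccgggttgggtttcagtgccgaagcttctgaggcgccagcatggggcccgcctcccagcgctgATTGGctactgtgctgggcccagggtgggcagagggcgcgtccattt
Idi1, chr13:8885356-8885605, plus strand: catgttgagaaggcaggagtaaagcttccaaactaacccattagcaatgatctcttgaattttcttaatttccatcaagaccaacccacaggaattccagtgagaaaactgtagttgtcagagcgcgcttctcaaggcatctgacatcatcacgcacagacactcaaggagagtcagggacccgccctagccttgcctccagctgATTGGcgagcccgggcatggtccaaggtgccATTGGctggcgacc

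In the Tm7sf2 stretch 1 match ends 43 bases before the start, and in that of Idi1 the 2 matches end 41 and 10 bases before it. The element TCACNCCAC, written after the first SREBP sites described, was found in 1 of the 16 genes (6.25%) and in 1.01% of all promoters, and the absence of these letters from a window says nothing of the factor.

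**Figure D2:**
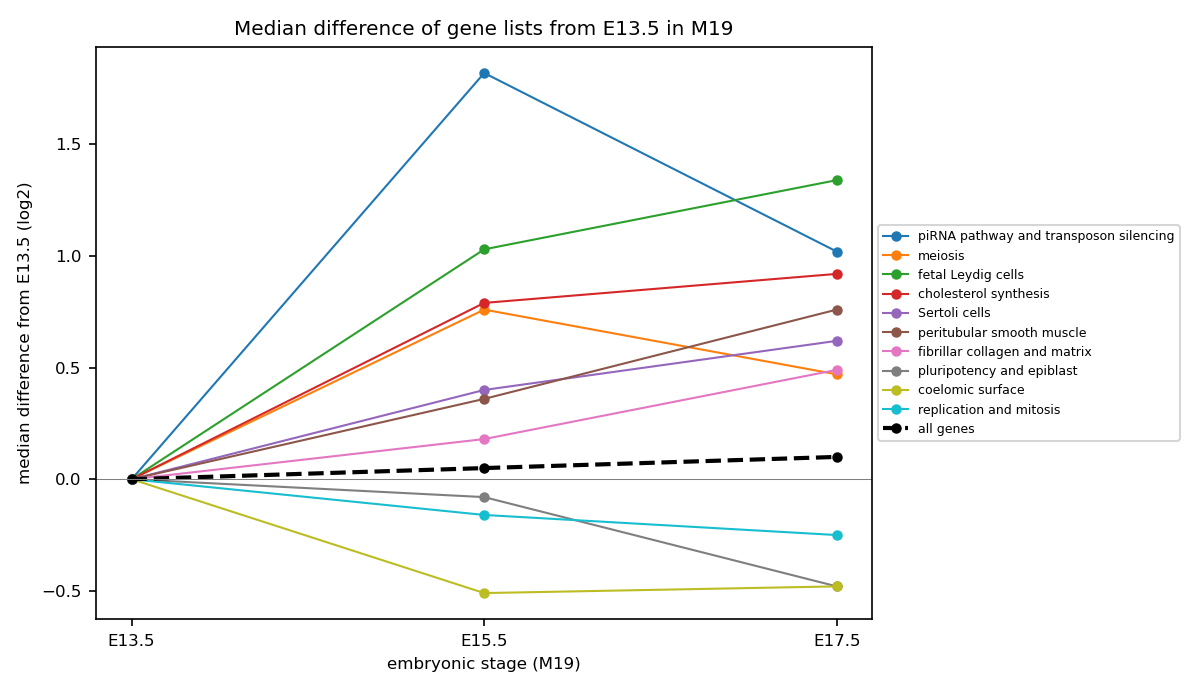
Median difference from E13.5 in log2 units (vertical axis) of 10 gene lists and of all genes (dashed) in M19 at E13.5, E15.5 and E17.5 (horizontal axis), with E13.5 set to 0. The piRNA list stood at 1.82 at E15.5 and 1.02 at E17.5, while the Leydig cell list went from 1.03 to 1.34 and the pluripotency list from -0.08 to -0.48.

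Of the 12 smooth muscle genes of the peritubular layer measured, 7 were higher and 0 lower, with 6 called at the earlier step and 5 at the later step. Myh11, the heavy chain of smooth muscle myosin, read 7.56 and 7.33, then 9.11 and 8.88, then 9.98 and 10.06, a rise of 2.57 ± 0.14. Tagln, an actin-binding protein, read 9.57 and 9.60, then 10.84 and 10.88, then 11.66 and 11.81, a rise of 2.15 ± 0.11. Acta2, smooth muscle actin, encoded on chromosome 19 at 34240336 to 34255585, read 11.96 and 11.83, then 12.83 and 12.91, then 13.39 and 13.43. No stage overlaps another in these genes. Over the list, limma had 9 higher and 0 lower at an unadjusted p under 0.05. The rise of Acta2 was 1.52 ± 0.11, but its 2 dimmer probe sets differed by 0.15 and 0.26. The other probe set of Myh11 differed by 0.41 and was not called.

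Of the 28 genes of connective tissue matrix measured, 16 were higher and 3 lower over the span, with a median of 0.49. At the earlier step 7 were called higher and the median was 0.18, and at the later step 10 were and it was 0.40, a difference between steps that was not tested. The lower ones were 1 without either M19 array of E13.5 or replicate 1 of M19 at E17.5. Aspn and Ogn, small leucine-rich proteoglycans, rose by 2.93 ± 0.25 and 2.30 ± 0.16, elastin (Eln) by 2.58 ± 0.12 and the cross-linking enzyme Lox by 1.62 ± 0.13. Elastin read 9.42 and 9.26, then 10.65 and 10.73, then 11.87 and 11.99, a near even climb. Col1a1, the main fibrillar collagen, read 12.69 and 12.64, then 12.68 and 12.73, then 13.49 and 13.44, and rose at the later step. The members that fell were Postn, a matrix protein of growing tissue (1.03 ± 0.14), Col14a1 and the proteoglycan Lum.

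Of the 18 basement membrane genes measured, 7 were higher, 1 lower and 10 not called, but 3 or 2 were higher without replicate 1 or 2 of M19 at E13.5 and 4 without replicate 2 of M19 at E17.5. The lower ones were 0 without either M19 array of E13.5 or replicate 1 of M19 at E17.5, and 2 without any 129 array of E13.5 or E15.5. Lama2, a laminin chain of muscle, stood out at 1.98 ± 0.12, with 8.55 and 8.52 at E13.5 and 10.55 and 10.47 at E17.5. Among 18 genes of the interstitial mesenchyme 5 were higher and 1 lower (27.8% and 5.56%, against 10.2% and 5.29% of all genes). The count of higher members was 2 or 1 without replicate 1 or 2 of M19 at E13.5, 3 without either M19 array of E15.5 and 3 or 2 without replicate 1 or 2 of M19 at E17.5. The larger changes in that list were in the nuclear receptor Nr2f1, which fell by 2.38 ± 0.14, from 11.31 and 11.25 to 8.87 and 8.93, and in Mfap4, a microfibril protein, which rose by 1.58 ± 0.11.

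Some genes that pattern the trunk and the early urogenital ridge were lower at E17.5. Of the 20 Hox genes measured, 7 were lower, 2 higher and 11 not called, with a median of -0.13, and 4 were lower without replicate 2 of M19 at E13.5 or replicate 1 of M19 at E17.5. The higher ones were 0 without either M19 array of E13.5 or replicate 2 of M19 at E17.5, and 1 without either M19 array of E15.5, replicate 1 of M19 at E17.5 or either 129 array of E17.5. Hoxa10 read 9.06 and 9.17, then 6.83 and 6.53, then 5.24 and 6.26, and Hoxa9 read 10.51 and 10.64, then 8.05 and 7.68, then 7.27 and 7.52. Hoxa10 fell by 3.36 ± 0.35 and Hoxa9 fell by 3.17 ± 0.21, and these falls are not shared by the other probe set of each gene (0.21 and -0.29, not called). Hoxc8 fell by 1.80 ± 0.26 and Hoxb6 by 1.44 ± 0.18, while Hoxd8 rose by 0.59 ± 0.12 and Hoxa11 by 0.45 ± 0.13. In the retinoic acid list 7 of 17 were lower (41.2%, against 5.29% of all genes) and 2 higher (11.8%, against 10.2%). The other 8 were not called, and the median was -0.09. The synthesis enzymes Aldh1a2 and Aldh1a3 fell by 0.91 ± 0.15 and 1.18 ± 0.18 and the receptor Rarb by 1.48 ± 0.15, while Aldh1a1 rose by 0.87 ± 0.11. Cyp26b1, which destroys retinoic acid in the fetal testis, read 11.18 and 11.00 at E13.5 and 11.13 and 11.06 at E17.5 and was not called (0.00 ± 0.20).

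A part of the markers of tissues next to the gonad was lower in the same comparison. Of 14 genes of the mesonephros and its ducts, 6 were lower and 0 higher, with a median of -0.10, and the same 6 were called lower at the earlier step (1.66% of all genes). At an unadjusted p under 0.05 limma had 1 member higher over the span. Cdh16, a kidney and duct cadherin, read 9.67 and 9.64, then 7.69 and 7.89, then 8.01 and 7.89, and Wfdc2, a duct secretion, read 9.61 and 9.48, then 7.75 and 7.69, then 7.64 and 7.48. Cdh1, the epithelial cadherin that germ cells also carry, read 10.65 and 10.67, then 9.95 and 9.64, then 8.10 and 8.47, and it fell by 0.86 at the earlier step and by 1.51 at the later step. The summed linear signal of the list was 8465 to 8809 at E13.5, 5218 to 5231 at E15.5 and 4811 to 4910 at E17.5, and no member stood at 0. Of 13 genes of the coelomic surface 6 were lower, 1 higher and 6 not called, and the lower ones include the keratin Krt18 (1.07 ± 0.12), the mesothelial uroplakin Upk3b (0.81 ± 0.12) and the ridge factor Emx2, which is also in the mesonephros list (1.88 ± 0.15). The part of adjoining tissue in the falls of Hox and retinoic acid genes was not tested.

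**Figure D3:**
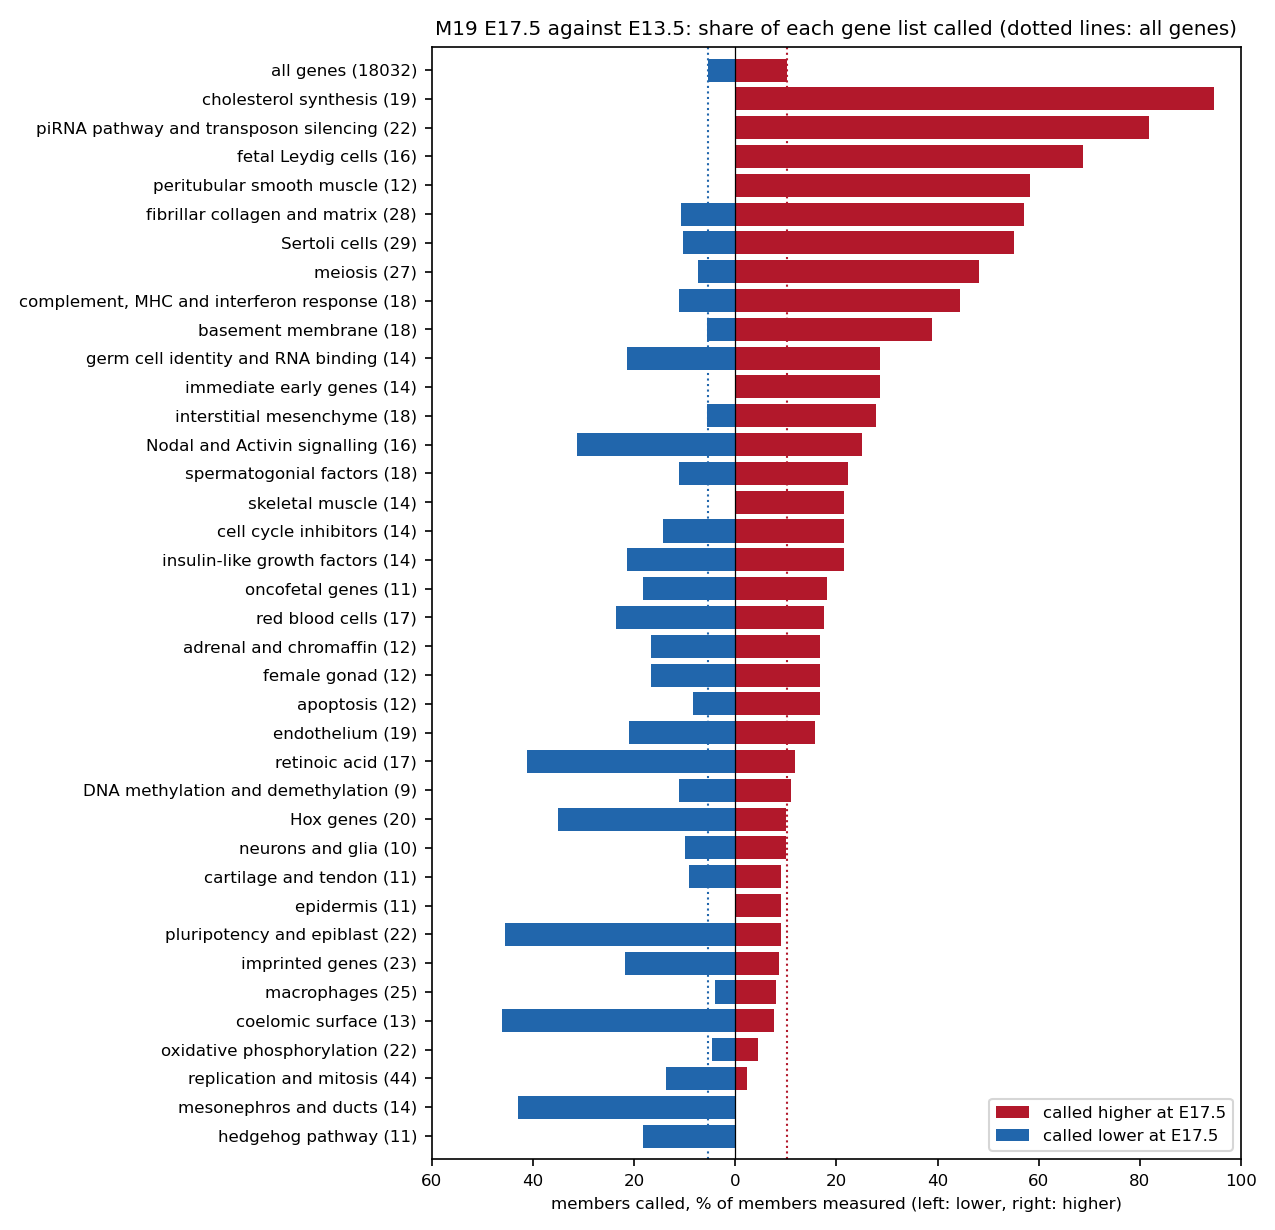
Share of the measured members of each list shown called higher (right, red) or lower (left, blue) at E17.5 against E13.5 in M19, in percent (horizontal axis), with the number measured in brackets and the shares over all genes as dotted lines. The liver and neutrophil lists and the named chromosome 19 genes are not shown. Cholesterol synthesis reached 94.7% higher and the piRNA list 81.8%, and the coelomic surface list had 46.2% lower.

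Several other genes with very large changes belong to no testis list. Afp, alpha-fetoprotein of yolk sac and liver (chromosome 5, 90490714 to 90508907), read 6.01 and 6.12, then 10.09 and 9.78, then 10.52 and 10.89, a rise of 4.64 ± 0.28. Of its 4 further probe sets 3 were called higher. Beside it, 1 of 7 liver genes measured was called higher, Ahsg (0.74 ± 0.14), with 0 without replicate 2 of M19 at E13.5 or replicate 1 of M19 at E17.5 and 3 without either 129 array of E13.5, and albumin (Alb) read 7.52 and 7.30 at E13.5 and 7.68 and 7.64 at E17.5 and was not called. The summed signal of the liver list was 1347 to 1460 at E13.5 and 1613 to 1891 at E17.5, with no member at 0. S100a9, a calcium-binding protein of neutrophils, read 7.82 and 7.65, then 10.47 and 10.33, then 11.26 and 11.16. Of 6 neutrophil genes 3 were called higher, Ngp (1.91 ± 0.12), Camp (1.58 ± 0.15) and Ltf (0.85 ± 0.14), while Mpo and Elane were not (0.26 and 0.15). That list's summed signal was 2383 to 2473 at E13.5 and 4413 to 4667 at E17.5, with no member at 0. The liver and neutrophil lists were chosen after the values of Afp and S100a9 had been seen.

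Ccl17, a chemokine that attracts T cells, read 7.66 and 7.74, then 9.94 and 9.73, then 11.66 and 11.53. Bcan, the proteoglycan brevican, rose by 3.83 ± 0.15, but its other probe set differed by 0.76 and was not called. Gm364 rose by 4.05 ± 0.22 and the transketolase-like gene Tktl1 by 3.35 ± 0.18. Both lie on the X chromosome, as does Nxf2, and in both the earlier step held the rise, by 3.99 and 4.12, with no call at the later step. Of the 96 genes that rose by at least 2, 8 lie on the X chromosome, which holds 617 of the 18032 genes. Chromosome 8 has 10 of the 96 among 932 genes, and chromosome 15 has 1 among 724. A difference between chromosomes was not tested. Pdlim3, of muscle Z lines, rose by 3.26 ± 0.12.

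Among the falls, Hmga2, an architectural chromatin protein of growing embryonic tissue, read 13.43 and 13.38, then 11.51 and 11.68, then 9.36 and 9.73. It fell by 3.86 ± 0.13 in near equal steps of 1.81 and 2.05, and its 3 further probe sets were called lower too. Shisa3, of a family of Wnt and FGF antagonists, fell by 3.57 ± 0.19 and the monooxygenase Moxd1 by 2.74 ± 0.17, both at the earlier step. The matrix protein Tgfbi fell by 2.93 ± 0.11, the integrin Itga8 by 2.91 ± 0.17 and the secreted protein Nell1 by 2.68 ± 0.23, though the other probe set of Nell1 differed by -0.22.

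Growth factor and cell cycle genes changed by less. Igf1 rose by 1.58 ± 0.15, from 10.19 and 10.33 to 11.70 and 11.98, while Igf2, its fetal relative, fell by 0.65 ± 0.11, from 14.04 and 13.99 to 13.38 and 13.34. Of 44 genes of replication and mitosis 1 was higher and 6 lower (2.27% and 13.6%, against 10.2% and 5.29% of all genes). The median was -0.25, and 10 were lower after quantile normalization and 13 after median centring. Without replicate 2 of M19 at E13.5, 1 was lower, and without replicate 1 of M19 at E17.5, 2 were. Ccnd1, a cyclin that starts the cycle, fell by 1.58 ± 0.19, and its relative Ccnd2 rose by 0.38 ± 0.10. The higher ones of the list were 2 without either 129 array of E13.5 and 0 without any other array. The inhibitor Cdkn2a, which encodes p16 and p19ARF, rose by 1.30 ± 0.15, Cdkn2c by 0.72 ± 0.15 and Cdkn1b by 0.70 ± 0.21, while Cdkn1c and Cdkn1a fell by 0.98 ± 0.12 and 0.92 ± 0.10. With either M19 array of E13.5 or replicate 1 of M19 at E17.5 left out, 1 cell cycle inhibitor was called higher. Pmaip1, the death-promoting protein NOXA, fell by 2.02 ± 0.30, from 9.17 and 9.30 to 6.89 and 7.55.

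Markers of other cell types that the organ could hold also held called genes, beside 10.2% higher and 5.29% lower of all genes. Among 19 endothelial genes 3 were higher (15.8%) and 4 lower (21.1%), with 2 lower without replicate 1 of M19 at E13.5 and 5 higher without either 129 array of E13.5. Vwf, the von Willebrand factor, read 7.80 and 7.94, then 10.32 and 10.16, then 10.21 and 10.12, a rise of 2.29 ± 0.13 that had come by E15.5, while the sialomucin Emcn fell by 1.41 ± 0.14. Of 25 macrophage genes 2 were higher (8%) and 1 lower (4%), of 12 adrenal genes 2 and 2 (16.7% each), and of 14 skeletal muscle genes 3 (21.4%) and 0, with 5 and 0 at an unadjusted p under 0.05 in limma. The higher macrophage genes were 1 without either M19 array of E13.5 or replicate 2 of M19 at E17.5, and the lower ones 0 without any of the 4 M19 arrays of these stages. The higher adrenal genes were 1 without any M19 array or either 129 array of E17.5, and the lower ones 1 without any M19 array of E13.5 or E17.5. Cyp21a1, the steroid hydroxylase of the adrenal cortex, rose by 2.29 ± 0.14, from 8.33 and 8.25 to 10.66 and 10.49. Of 18 genes of antigen presentation, complement and interferon response 8 were higher (44.4%) and 2 lower (11.1%), with among them the class I gene H2-D1 (0.86 ± 0.11) and the complement gene C1ra (0.99 ± 0.13) on the higher side. Without replicate 1 or 2 of M19 at E13.5, 4 or 3 of these were higher, and without replicate 1 of M19 at E17.5, 5 were. The lower ones were 1 without any M19 array or any 129 array of E15.5 or E17.5.

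Chromosome 19, which M19 carries from MOLF, had shares of called genes near those of the whole array. Of its 609 genes 10% were higher and 5.09% lower, against 10.2% and 5.29% of all genes. The 3 chromosome 19 genes that the series text names as lower in M19 are D19Bwg1357e (Pum3), Zfp162 (Sf1) and Cox15. Pum3 fell by 0.62 ± 0.11 over the span, with no call without replicate 2 of M19 at E13.5, and Sf1 (-0.32 ± 0.17) and Cox15 (0.03 ± 0.19) were not called.

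By steps, the earlier one had more calls. From E13.5 to E15.5 2461 probe sets were called (5.46%), 1745 higher (3.87%) and 716 lower (1.59%), and from E15.5 to E17.5 1052 were (2.34%), 445 higher (0.988%) and 607 lower (1.35%). Without replicate 1 or 2 of M19 at E13.5 the earlier step had 979 or 938 calls, and without replicate 1 or 2 of M19 at E15.5 it had 1007 or 1291. The later step had 173 or 288 calls without replicate 1 or 2 of M19 at E15.5, 269 or 356 without replicate 1 or 2 of M19 at E17.5, 551 without either M19 array of E13.5 and 1896 without either 129 array of E13.5. For genes higher over the span the median difference was 0.42 at the earlier step and 0.29 at the later step, and for genes lower it was -0.36 and -0.32.

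The same span in 129, which shares no array with that in M19 but shares its estimate of the spread, gave 3721 calls (8.26% of probe sets). Counted by genes, 2797 were called in M19 (the 10.2% higher and 5.29% lower given above) and 1975 (11.0%) in 129, and 1657 were called in both in the same direction, which is 59.2% of the M19 genes and 83.9% of the 129 genes. Trh was the 1 gene called in opposite directions. Of the genes called in M19, 99.1% had the same sign in 129, against 76.8% of all genes. The number called in 129 fell to 1925 or 1857 probe sets without replicate 1 or 2 of 129 at E17.5. Without replicate 1 of 129 at E13.5, the array with the high 18S signal, 4081 genes were called in M19 and 2072 in 129, and the 1869 shared in direction are 45.8% and 90.2%.

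**Figure D4:**
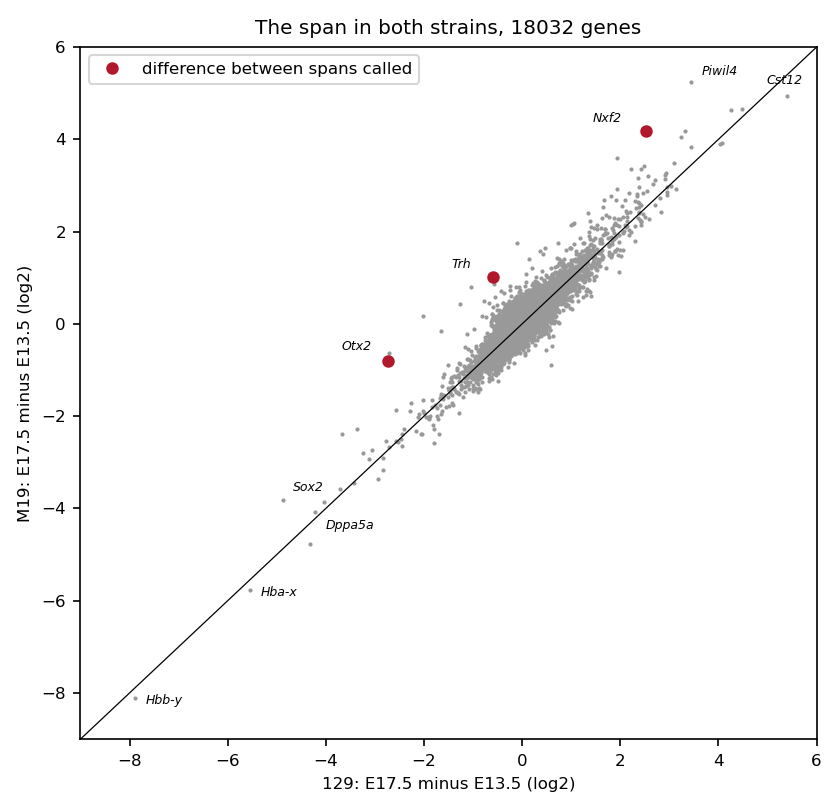
Difference from E13.5 to E17.5 in log2 units in M19 (vertical axis) and in 129 (horizontal axis) for 18032 genes, each dot a gene, with the line of equal change and the 3 genes whose difference between strains was called in red. Most genes lie along the line, and Trh, Nxf2 and Otx2 lie above it.

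A test of the difference between the spans called 4 of 45037 probe sets (0.00888%), all with the more positive change in M19, and 0 (0.00%) the other way. They belong to 4 genes, but as representative probe sets 3 of 18032 genes (0.0166%) were called. At an unadjusted p under 0.05 limma had 739 higher and 306 lower. Cer1, a secreted inhibitor of Nodal, BMP and Wnt (chromosome 4, 82881751 to 82885151), showed the largest difference, in the dimmer of its 2 probe sets. That probe set read 5.27 and 5.24 at E13.5, 5.57 and 5.78 at E15.5 and 9.55 and 10.00 at E17.5 in M19. In 129 it read 5.22 and 5.26, then 5.51 and 5.67, then 6.16 and 6.05, so the strains separated at E17.5 only. The rise was 4.52 ± 0.15 in M19 and 0.87 ± 0.15 in 129, and the difference of 3.65 ± 0.21 (limma adjusted p = 1.6e-04) was called in each of the 12 leave-one-out fits. The brighter probe set of Cer1 rose by 0.64 ± 0.17 in M19 and its difference between strains was 0.34 ± 0.23 (adjusted p = 1 in limma).

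Trh, the precursor of thyrotropin-releasing hormone (chromosome 6, 92242061 to 92244650), read 8.16 and 8.23, then 7.77 and 7.72, then 9.32 and 9.10 in M19, and 8.12 and 7.94, then 7.54 and 7.53, then 7.48 and 7.41 in 129. It rose in M19 by 1.02 ± 0.12 and fell in 129 by 0.59 ± 0.12, a difference of 1.61 ± 0.17 (limma adjusted p = 0.022). Nxf2 began lower in M19, at 6.75 and 6.82 against 8.02 and 8.26 at E13.5, and ended at 10.95 and 10.99 against 10.66 and 10.67. Its difference of 1.66 ± 0.18 (limma adjusted p = 0.022) thus lies mostly in the E13.5 values. Otx2, a head and epiblast homeobox factor, read 9.09 and 8.92, then 7.90 and 7.87, then 8.00 and 8.42 in M19, and 8.92 and 9.19, then 6.07 and 5.92, then 6.40 and 6.23 in 129. It fell in both strains, by 0.80 ± 0.16 and 2.74 ± 0.16, with a difference of 1.94 ± 0.22 (limma adjusted p = 0.036).

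These 3 differences are less firm than that of Cer1: over the 12 leave-one-out fits Trh and Nxf2 were called in 4 each and Otx2 in 2. Quantile normalization gave an adjusted p of 0.081 for Nxf2 and 0.086 for Otx2 in limma, and with the replicate block that of Otx2 was 0.061 in limma. The differences of Morc1 (1.67 ± 0.22, limma adjusted p = 0.12), the endoderm factor Foxa2 (1.27 ± 0.21, 0.49) and Piwil4 (1.81 ± 0.39, 1) missed the threshold, which does not show that they were alike in both strains.

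**Figure D5:**
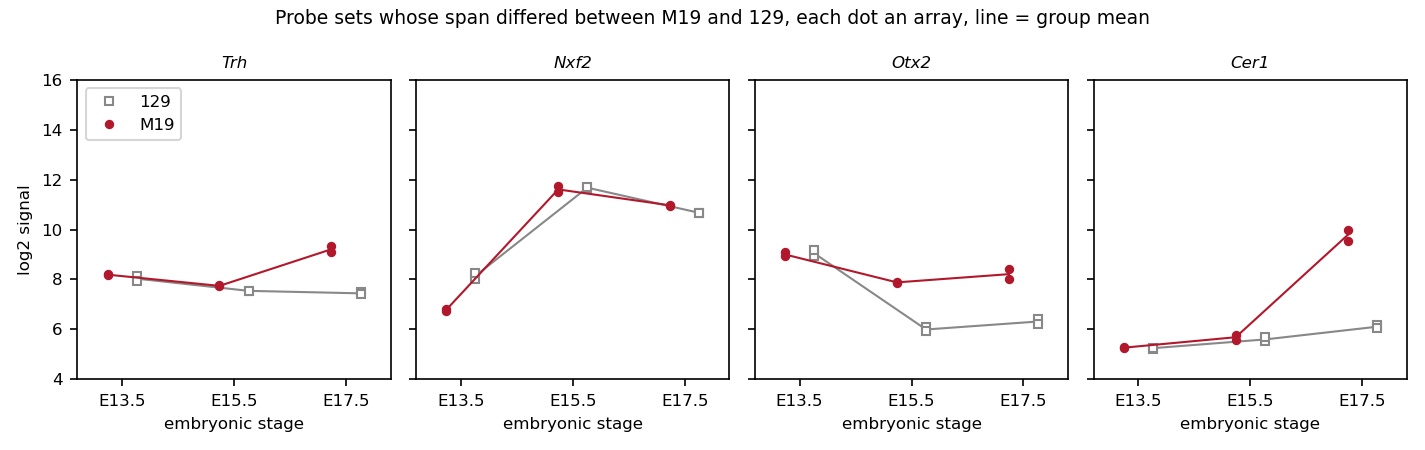
Log2 signal (vertical axis) at E13.5, E15.5 and E17.5 (horizontal axis) of the 4 probe sets whose span differed between strains, with M19 as filled circles, 129 as open squares, each mark an array and lines joining group means. Cer1, by its dimmer probe set, and Trh separate at E17.5, Otx2 from E15.5 on, and Nxf2 differs at E13.5.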

How the data were processed

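Total RNA of male gonads was hybridised to 12 Affymetrix mouse arrays, 2 for each of 6 groups. The deposited values are taken as log2 signal because of their range and medians; the summary method, the normalization and the log base are not given in the sources used here. The values were analysed as deposited, and scanner intensities did not enter. Control probe sets, 64 in number, were omitted. The platform annotation pairs 34945 probe sets with 1 gene, 932 with several and 9160 with none, and 34741 matched RefSeq (GRCm38.p6) by gene. Where a gene has several probe sets, the brightest on average represents it.

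A linear model with 6 group means was fitted to all 12 arrays with limma 3.58.1 in R 4.3.3 (6 residual and 4.82 prior degrees of freedom), without a replicate block. Tests are two-sided, with Benjamini-Hochberg adjustment over 45037 probe sets. Differences are later minus earlier stage, with the model's standard error. Tables and plots used Python 3.11.15, pandas 2.3.3 and matplotlib 3.10.9. The procedure was tested on simulated data for the M19 span, with 200 of 45037 probe sets changed. Of 50 changes each, it called 2 of size 0.5, 45 of size 1, 50 of size 2 and 46 of size -1. There were 11 false calls among 44837 unchanged probe sets. The data had 3152 higher and 2404 lower calls. As the adjustment depends on how many probe sets change, the simulated shares do not carry over to the data.

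Up to 15 genes each way were named by size of difference, among called representatives whose arrays do not overlap and whose higher mean lies above 8.17, the middle value of the probe sets' mean signals. Members of 38 gene lists were added, the defining ones first. Lists are given by counts and medians without a set test. Beside them, 10.2% of all genes were higher and 5.29% lower over the span. The members and lists were chosen with earlier results of these data known, and 2 further lists, of liver and neutrophil genes, after seeing the values here. The other lists, not described above, gave these counts of higher and lower members over the span: of 12 ovary genes 2 and 2, of 11 hedgehog genes 0 and 2 (1 and 3 at an unadjusted p under 0.05 in limma), of 23 imprinted genes 2 and 5, of 22 oxidative phosphorylation genes 1 and 1, of 11 oncofetal genes 2 and 2, of 12 apoptosis genes 2 and 1, of 14 insulin-like growth factor genes 3 and 3, of 14 cell cycle inhibitors 3 and 2, of 11 epidermis genes 1 and 0 (3 and 1 unadjusted), of 11 cartilage genes 1 and 1, of 10 neural genes 1 and 1, and of 14 immediate early genes 4 and 0 (5 and 1 unadjusted). In these lists the counts of 1 to 3 stayed between 0 and 4 over the fits that each omit 1 array. Of the immediate early genes, 2 or 1 were higher without replicate 1 or 2 of M19 at E13.5, and 2 without replicate 2 of M19 at E17.5.

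Replicate numbers were not taken as pairs: the deviations of same-numbered arrays from their group means correlated at 0.18 between M19 at E13.5 and at E17.5, and at -0.37 to 0.54 over all pairs of groups. Alternatives were quantile normalization, median centring, a filter on dim probe sets, an intensity trend, robust variance, fewer arrays in the fit, a replicate block, a minimum difference, other probe sets per gene and leaving out each array. Promoters are the 250 bases before the first listed start from RefSeq, build GRCm38.p6.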

Additional observations from a re-analysis of the deposited data

Results flagged for a closer look

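The change from E13.5 to E17.5 differed between M19 and 129 by a direct test in 4 probe sets. In each the change was more positive in M19. The difference was 3.65 log2 units for Cer1 in its dimmer probe set, 1.94 for Otx2, 1.66 for Nxf2 and 1.61 for Trh. For Otx2 this was a smaller fall in M19, and for Nxf2 a lower start at E13.5. The limma adjusted p was 1.6e-04 for Cer1, 0.036 for Otx2 and 0.022 for Nxf2 and Trh. The highest adjusted p over the 12 leave-one-out fits was 0.0043 for Cer1, 0.36 for Otx2 and 0.23 for both Nxf2 and Trh. Groups of 2 arrays are too small for a test of single arrays as outliers.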

How the results depend on the processing

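Over all gene results and settings no difference that was called changed its sign. Of the 272 list and named genes called over the M19 span, 169 were called in all 12 fits that leave out an array and 255 in the same direction under 6 other settings of the fit, and the 30 largest changes were called in all 12. These 30 had been chosen by size among called genes whose arrays do not overlap, and all these fits reuse the same arrays. Their calls are therefore no separate test. A limma fit on the 6 M19 arrays alone called 5675 probe sets higher and 4351 lower over the span, 3697 at the earlier step and 2361 at the later step. A fit on the 4 arrays compared gave 5060 higher and 3773 lower in M19 and 1326 calls in 129. A minimum difference of 1 log2 unit left 688 higher and 489 lower, 731 and 254 at the steps, 1001 in 129 and 123 of the 260 distinct list genes called. The difference between spans gave 2 calls after quantile normalization, 2 after median centring and 1 with dim probe sets left out, against 4. Leaving out each array in turn gave 1132 to 4889 higher and 564 to 3424 lower over the M19 span, 938 to 3242 calls at the earlier step, 173 to 1896 at the later step, 1857 to 4658 in 129, 1 to 6 for the difference between spans and 166 to 295 list genes (the 166 without replicate 2 of M19 at E13.5). With the replicate block the calls were 3239 higher and 2548 lower, 2492 and 1014 at the steps, 3733 in 129, 3 for the difference between spans and 268 list genes. As the fits with fewer arrays estimate the spread from fewer groups, their counts and those above rest on different estimates of it. Signal over background could not be judged from these values, and small changes are at the limit of 2 arrays a group.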
